A study of Homo sapiens with 2 samples.

Results

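The proteasome genes were examined in a CUT&Tag map of lysine lactylation in CAL27, an established oral squamous cell carcinoma line. They were taken as every protein-coding gene whose symbol starts PSMA, PSMB, PSMC, PSMD, PSME, PSMF or PSMG, which gave 50 of the 20033 protein-coding genes of the annotation. CUT&Tag uses an antibody, here one against lactylated lysine on any protein, to direct a protein A-Tn5 transposase to the chromatin beside the modification, where it cuts and tags the DNA. There was 1 library from cells given 10 mM lactate for 24 hours and 1 library from cells with no treatment, both of the same line and with the same antibody. A gene was counted as marked when a peak region of a library overlapped 1 kb to either side of an annotated end of the gene.

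With 1 library per condition no difference between the libraries has a replicate check, and no p-value is given. Intervals are 95% exact intervals on tag counts and cover counting error only. They treat tags as independent molecules, which tags are not, so they may be too narrow. The libraries held 15120031 tags and 50352 peak regions (lactate) and 15696147 tags and 43680 peak regions (untreated). In the header of each peak list the run name, the input name and all peak names, 58929 in the list deposited for the lactate sample and 49750 in the other, belong to the other sample, while the name line fits the label. The sample labels were kept here, and the libraries are called lactate-labelled and untreated-labelled. If the lists had been exchanged, each direction between them would turn.

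The 26S proteasome degrades proteins that carry ubiquitin chains. Its barrel-shaped core particle is built of stacked rings of alpha subunits, which gate the entry, and beta subunits, some of which cut peptide bonds. A regulatory particle of ATPases and non-ATPase subunits binds ubiquitinated proteins, removes the ubiquitin and unfolds the substrate. Interferon replaces the catalytic beta subunits by immunoproteasome forms, which favour peptides for antigen presentation, and other forms belong to the thymus and the testis. Genes of the constitutive particles are used in nearly all cells.

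Of the 50 genes, 38 were marked in the lactate-labelled library (76.0%) and 35 in the untreated-labelled library (70.0%), against 49.5% and 43.5% of all protein-coding genes. In both libraries 33 were marked, against 39.8% of all protein-coding genes, and 10 were marked in neither, against 46.8%. PSMA7, PSMB6, PSMC3, PSMD4 and PSMG2 were marked in the lactate-labelled library alone (5 of 50, against 9.69% of all genes). PSMA1 and PSMA4 were marked in the untreated-labelled library alone (2 of 50, against 3.74%). No region of these 7 genes overlapped any region of the other library, which also held for 97.3% of all protein-coding genes marked in 1 library alone. These shares are a description of 2 libraries and of a list chosen with earlier results known.

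The authors' fold enrichment, the ratio of the tags piled up at a summit to the local background, ranks regions within a library. Over the 38 genes marked in the lactate-labelled library it ran from 3.48 at PSMG3 to 13.1 at PSMG1 with a median of 6.42, beside a median of 5.49 over all protein-coding genes marked there. Over the 35 genes marked in the untreated-labelled library it ran from 2.74 at PSME1 to 10 at PSMG1 with a median of 5.17, beside 5.14. The 5 highest in the lactate-labelled library were PSMG1, PSMC4, PSMB8, PSME3IP1 and PSMD3. In the untreated-labelled library they were PSMG1, PSMB1, PSMD5, PSMD10 and PSMD12, so only PSMG1 stood in both sets.

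**Figure D1:**
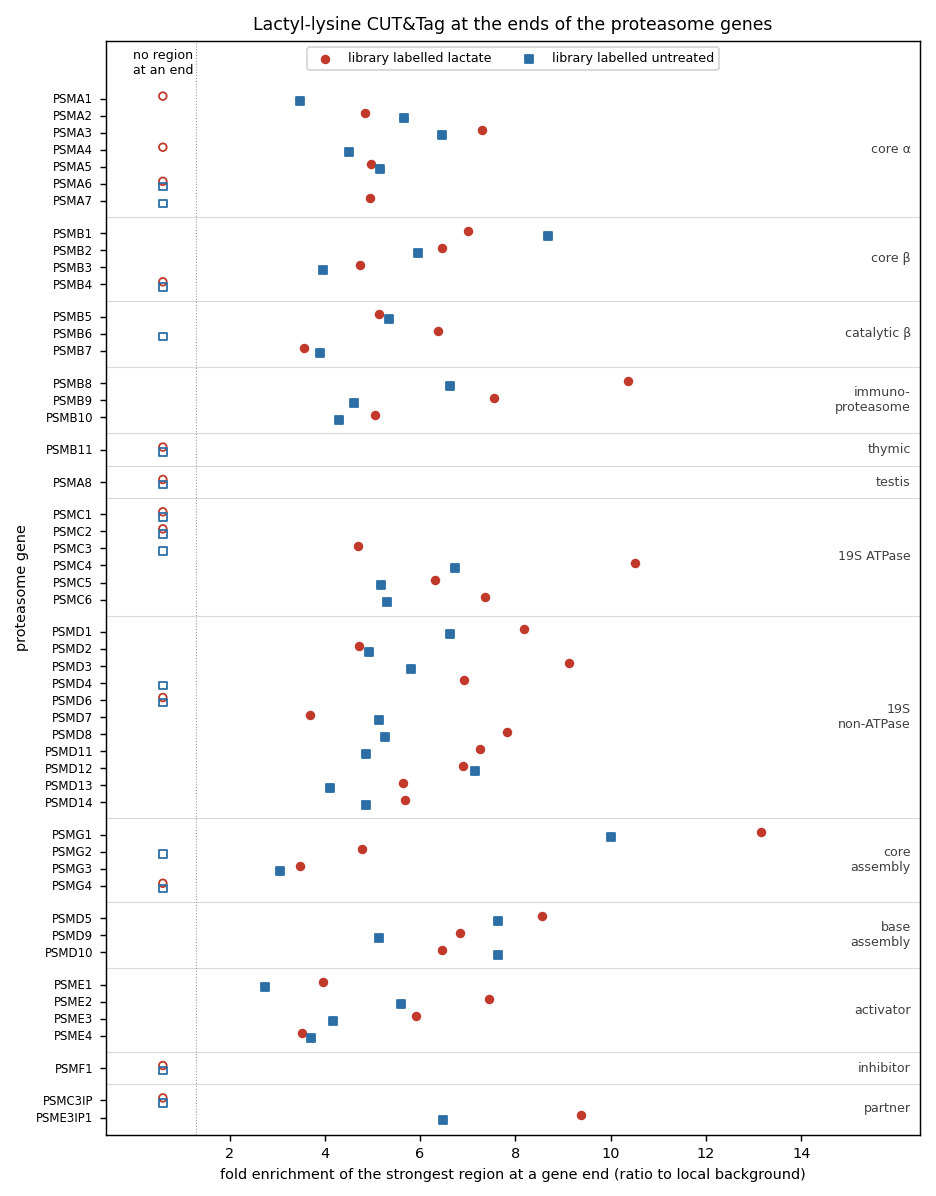
Fold enrichment (x axis, ratio to local background) of the strongest region at an end of each of the 50 proteasome genes (y axis), grouped by role. Filled symbols are marked genes and open symbols at the left are genes with no region at an end. PSMG1 is the highest in both libraries (13.1 and 10), and PSMB11, PSMA8 and PSMF1 have no region at an end in either.

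The constitutive core particle comprised 14 genes. Each library marked 10 of these, and 8 were common to both. Among the 7 alpha ring genes, PSMA2, PSMA3 and PSMA5 were marked in both. PSMA3 had summit pileups of 32 tags (interval 21.9 to 45.2) in the lactate-labelled library and 22 tags (13.8 to 33.3) in the untreated-labelled library, on chromosome 14 from 58244657 to 58245369 and from 58244594 to 58245265. PSMA2 had 14 tags in the lactate-labelled library and 21 tags in the untreated-labelled library, the lowest ratio between the libraries of any proteasome gene. Of the 3 alpha genes marked in 1 library, PSMA7 carried a region in the lactate-labelled library (18 tags, chromosome 20 from 62143263 to 62143470), which also lay at an end of SS18L1. PSMA4 carried one in the untreated-labelled library (9 tags, chromosome 15 from 78540339 to 78540774). The PSMA1 region of the untreated-labelled library held 6 tags, the lowest summit pileup in that deposited list, and also lay at the end of the neighbouring gene PDE3B.

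PSMB1, PSMB2 and PSMB3, beta ring genes without a catalytic site of their own, were marked in both libraries. PSMB1 had 27 tags (17.8 to 39.3) in the lactate-labelled library and 32 tags (21.9 to 45.2) in the untreated-labelled library at a summit that shifted by 6 bp. PSMB4, the remaining gene of this kind, was marked in neither, and the nearest region lay 52.1 kb away in the lactate-labelled library and 52.2 kb away in the untreated-labelled library. The constitutive catalytic genes were marked in 3 of 3 in the lactate-labelled library and 2 of 3 in the untreated-labelled library. PSMB5, which encodes the chymotrypsin-like subunit, had 15 and 14 tags in regions that did not overlap, since the lactate-labelled region lay downstream of the start (chromosome 14 from 23034585 to 23035019) and the untreated-labelled region across it (23035130 to 23035380). PSMB7, the trypsin-like subunit gene, had 19 tags in each library. PSMB6, the caspase-like subunit gene, had 17 tags in the lactate-labelled library alone (interval 9.90 to 27.2, chromosome 17 from 4796010 to 4796264), with the nearest region of the untreated-labelled library 5.71 kb from an end.

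The 3 immunoproteasome genes were marked in both libraries, with pileups of 45, 33 and 45 tags at PSMB8, PSMB9 and PSMB10 in the lactate-labelled library. The values were 29, 17 and 33 tags in the untreated-labelled library. All 3 were thus higher in the lactate-labelled library, with ratios, after division by library tags, of 1.61 (0.988 to 2.66), 2.02 (1.09 to 3.86) and 1.42 (0.883 to 2.29), but relative to the typical shared gene-end region none of the 3 intervals excluded 1. PSMB8 and PSMB9 encode the immunoproteasome counterparts of PSMB5 and PSMB6 and lie in the major histocompatibility complex on chromosome 6, on both sides of the peptide transporter gene TAP1. The PSMB8 region (32844355 to 32844984 in the lactate-labelled library, 32844049 to 32844973 in the untreated-labelled library) also overlapped the window at an end of TAP1, and so did the PSMB9 region (32853463 to 32854232 and 32853434 to 32854191). In both libraries these regions span the 250 bases before each start.

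PSMB10, the counterpart of PSMB7, differed in position. Its regions (chromosome 16 from 67935539 to 67935895 and from 67935561 to 67935884) lay inside this short gene, 955 and 966 bp from its start, so they met the 1 kb window only at its edge, and with a window of 500 bp PSMB10 was marked in neither library. The next case outside the window was PSMG2 in the untreated-labelled library, with a region 1409 bp from an end and a fold enrichment of 5.38. The 250 bases before each start are shown for the immunoproteasome genes to set their letters beside the regions, from the RefSeq promoter table for GRCh38.p14. PSMB8 is at chr6:32844680-32844929 on the minus strand, PSMB9 at chr6:32853942-32854191 on the plus strand and PSMB10 at chr16:67936851-67937100 on the minus strand. Capitals mark CCAAT and an antioxidant response element core (TGACNNNGC, here on the reverse strand) in PSMB9 and an interferon-stimulated response element in PSMB10, and PSMB8 holds none of the motifs searched.
PSMB8: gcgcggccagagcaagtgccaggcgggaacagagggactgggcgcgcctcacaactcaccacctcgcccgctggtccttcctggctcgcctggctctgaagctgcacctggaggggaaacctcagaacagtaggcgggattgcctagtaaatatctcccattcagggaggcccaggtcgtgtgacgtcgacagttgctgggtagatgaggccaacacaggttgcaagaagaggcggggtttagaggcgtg
PSMB9: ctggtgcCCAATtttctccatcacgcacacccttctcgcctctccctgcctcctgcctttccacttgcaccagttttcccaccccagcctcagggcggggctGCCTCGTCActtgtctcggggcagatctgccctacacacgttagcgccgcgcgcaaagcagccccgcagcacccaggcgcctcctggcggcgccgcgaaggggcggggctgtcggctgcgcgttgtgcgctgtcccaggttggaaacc
PSMB10: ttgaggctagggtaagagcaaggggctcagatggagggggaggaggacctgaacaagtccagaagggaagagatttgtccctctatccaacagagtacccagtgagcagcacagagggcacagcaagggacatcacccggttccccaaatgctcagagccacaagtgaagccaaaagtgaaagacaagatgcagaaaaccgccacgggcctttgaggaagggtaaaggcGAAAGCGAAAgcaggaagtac

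The tissue-restricted genes carried no region at an end. PSMB11, the catalytic subunit gene of the thymic cortex, had its nearest regions 7.19 kb away in the lactate-labelled library and 6.83 kb away in the untreated-labelled library. PSMA8, an alpha subunit gene of male germ cells, had them 32.9 kb away in each. These are 2 genes, and 46.8% of all protein-coding genes were also marked in neither library. The PSMB11 sequence is shown as that of an unmarked gene with few CpG (chr14:23041962-23042211, plus strand), with CCAAT in either direction in capitals.
PSMB11: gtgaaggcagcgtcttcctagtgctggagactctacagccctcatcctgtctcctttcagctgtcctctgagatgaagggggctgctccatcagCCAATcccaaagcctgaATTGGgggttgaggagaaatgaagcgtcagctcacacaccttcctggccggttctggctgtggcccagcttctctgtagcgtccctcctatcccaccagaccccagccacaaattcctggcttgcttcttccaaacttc

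The regulatory particle comprised 17 genes, 14 marked in the lactate-labelled library and 12 in the untreated-labelled library. Its 6 ATPase genes, whose products form the ring that unfolds substrates, were split. PSMC4, PSMC5 and PSMC6 were marked in both, PSMC3 in the lactate-labelled library alone (14 tags, 7.65 to 23.5, chromosome 11 from 47426422 to 47426621), and PSMC1 and PSMC2 in neither. PSMC4 had 41 tags (29.4 to 55.6) in the lactate-labelled library and 27 tags (17.8 to 39.3) in the untreated-labelled library, with the second highest fold enrichment of all proteasome genes in the lactate-labelled library (10.5). The nearest regions to PSMC1 lay 5.88 and 5.91 kb from an end, and those to PSMC2 2.58 and 2.57 kb, at close to the same distance in the 2 libraries. The sequences before the starts of both unmarked ATPase genes are shown (chr14:90256303-90256552 and chr7:103347393-103347642, plus strand). Capitals mark CCAAT and an ETS motif (CCGGAAGT, here on the reverse strand) in PSMC2, and PSMC1 holds none of the motifs given in capitals.
PSMC1: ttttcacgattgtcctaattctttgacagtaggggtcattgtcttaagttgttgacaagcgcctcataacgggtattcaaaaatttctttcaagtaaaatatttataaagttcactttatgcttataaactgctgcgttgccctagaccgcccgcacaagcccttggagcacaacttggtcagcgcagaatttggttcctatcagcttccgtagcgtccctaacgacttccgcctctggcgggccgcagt
PSMC2: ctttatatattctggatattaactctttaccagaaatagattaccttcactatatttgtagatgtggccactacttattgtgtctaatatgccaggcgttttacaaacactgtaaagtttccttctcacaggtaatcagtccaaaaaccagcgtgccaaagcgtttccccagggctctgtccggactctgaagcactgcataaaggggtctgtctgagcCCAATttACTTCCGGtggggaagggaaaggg

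Of 11 non-ATPase genes of the regulatory particle, 10 were marked in the lactate-labelled library and 9 in the untreated-labelled library. PSMD1, the gene of a large scaffold subunit, had 33 tags (22.7 to 46.3) and 26 tags (17.0 to 38.1) in the lactate-labelled and the untreated-labelled library, with summits 1 bp apart. PSMD11 had 33 and 18 tags, and its region measured 1112 bp in the lactate-labelled library and 255 bp in the untreated-labelled library, which had a second region within the windows at its ends. PSMD7 was among the few genes with fewer tags in the lactate-labelled library (15 against 20). PSMD14, which encodes the deubiquitinating enzyme of the particle, had 14 and 10 tags. PSMD4, which encodes a ubiquitin receptor, had 25 tags (16.2 to 36.9) in the lactate-labelled library alone, on chromosome 1 from 151254597 to 151255118, and the untreated-labelled library had no region within 13.9 kb of its ends. It had the highest pileup of the 5 genes marked in the lactate-labelled library alone. PSMD6, a lid subunit gene, was marked in neither, with the nearest regions 34.5 and 97.4 kb away.

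Of 7 assembly genes, 6 were marked in the lactate-labelled library and 5 in the untreated-labelled library. PSMG1 and PSMG2 encode a pair of chaperones that build the alpha ring. PSMG1 had 55 tags (41.4 to 71.6) in the lactate-labelled library and 34 tags (23.5 to 47.5) in the untreated-labelled library, on chromosome 21 from 39182945 to 39184135 and from 39183076 to 39184131. Its fold enrichment lay at the 99.9th percentile of marked protein-coding genes in the lactate-labelled library and at the 98.6th in the untreated-labelled library. The same region lay at an end of BRWD1. PSMG2, in contrast, had 19 tags (11.4 to 29.7) in the lactate-labelled library alone, with a summit 639 bp upstream of its start.

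PSMG3, a partner of PSMG4 in the second chaperone pair, had 21 and 18 tags and fold enrichments of 3.48 and 3.05, low for marked genes. PSMG4 was marked at an end in neither library. The base chaperone genes PSMD5, PSMD9 and PSMD10 were marked in 3 of 3 in each library. Their pileups were 42, 21 and 18 tags in the lactate-labelled library and 34, 18 and 17 tags in the untreated-labelled library. The PSMG1 sequence is shown as that of the gene with the highest fold enrichment at an annotated end in each library (chr21:39183452-39183701, minus strand). Both regions span it, and capitals mark CCAAT and the antioxidant response element core.
PSMG1: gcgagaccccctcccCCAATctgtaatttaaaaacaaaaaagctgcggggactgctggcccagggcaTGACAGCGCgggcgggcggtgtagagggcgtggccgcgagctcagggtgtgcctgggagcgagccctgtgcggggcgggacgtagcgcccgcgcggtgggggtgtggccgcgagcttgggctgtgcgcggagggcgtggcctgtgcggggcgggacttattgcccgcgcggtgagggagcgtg

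All 4 activator genes were marked in both libraries. PSME1 and PSME2 encode the interferon-inducible activator ring. PSME2 had 47 tags (34.5 to 62.5) in the lactate-labelled library and 34 tags (23.5 to 47.5) in the untreated-labelled library, in a region shared with the end of RNF31, a ubiquitin ligase gene. PSME1 had 19 and 12 tags in regions that did not overlap, and in the untreated-labelled library it had the lowest fold enrichment of the list (2.74). PSME3, the gene of a nuclear activator, had 14 and 9 tags, and PSME4, the gene of a large single-chain activator, 9 and 10 tags. PSMF1, which encodes an inhibitor of the core particle, was marked in neither at an end, but 2 regions lay inside it in the lactate-labelled library and 3 in the untreated-labelled library.

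The symbol rule also took in 2 genes whose products bind a subunit without being part of the particle. PSME3IP1, which encodes a partner of the nuclear activator, had 50 tags (37.1 to 65.9) in the lactate-labelled library and 32 tags (21.9 to 45.2) in the untreated-labelled library. PSMC3IP, known for its part in meiotic recombination, was marked in neither.

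Among the 33 genes marked in both libraries, summit pileups were set side by side per 1000000 library tags. The median ratio of lactate-labelled to untreated-labelled was 1.33, and 29 of 33 genes had a ratio above 1. Over all 7972 protein-coding genes marked in both, the median was 1.23 and 76.4% had a ratio above 1, so an excess of ratios above 1 was also found over all genes marked in both. At least 1.5-fold higher in the lactate-labelled library were 11 of 33 genes, against 24.2% of all genes marked in both, and none was at most 1 over 1.5, against 2.04%.

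The 3 highest ratios were 2.02 at PSMB9 (1.09 to 3.86), 1.90 at PSMD11 (1.04 to 3.59) and 1.68 at PSMG1 (1.08 to 2.66). The 3 lowest were 0.692 at PSMA2 (0.326 to 1.43), 0.779 at PSMD7 (0.371 to 1.60) and 0.876 at PSMB1 (0.505 to 1.51). The interval excluded 1 at PSMB9, PSMD11, PSMG1 and PSME3IP1 (4 of 33, against 7.4% of all genes marked in both), and all 4 were higher in the lactate-labelled library. Relative to the median of 7351 shared gene-end regions, itself 1.22 on this scale (0.29 on the log2 scale), the median of the proteasome genes was 1.09. By that scaling 20 of 33 genes were above 1 and 0 intervals excluded 1, with PSMB9 at 1.65 (0.893 to 3.16). At these depths no single proteasome gene could be told from the typical shared region.

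**Figure D2:**
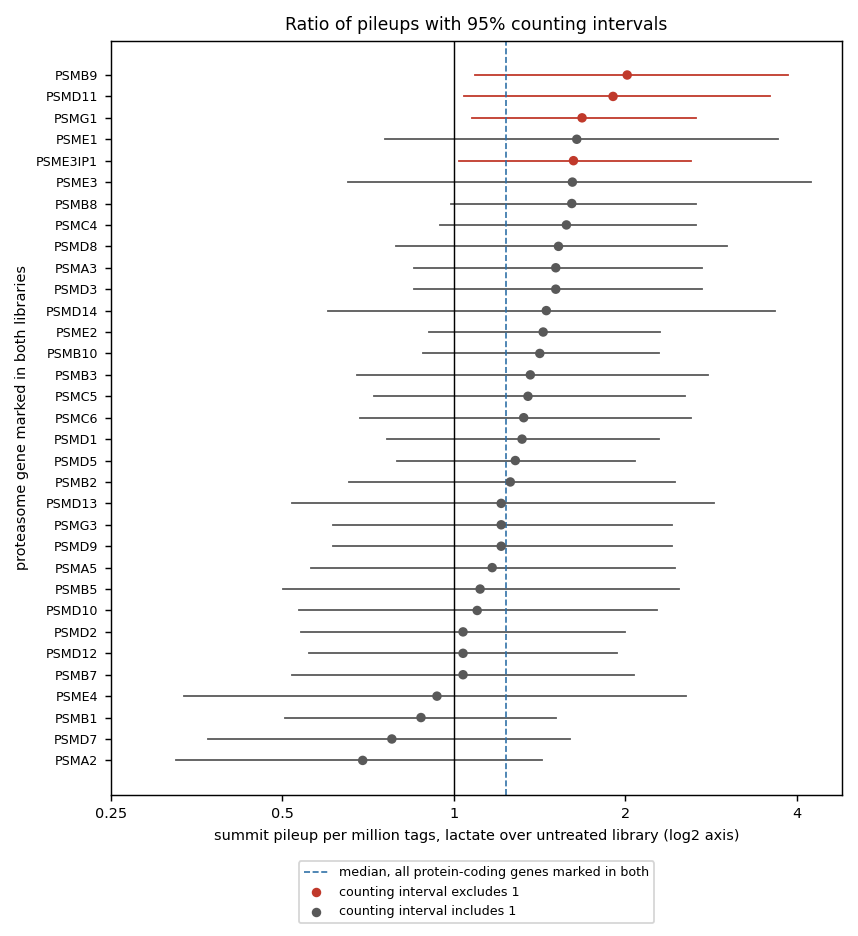
Ratio of summit pileup per 1000000 tags, lactate-labelled over untreated-labelled library (x axis, log2 scale), for the 33 proteasome genes marked in both (y axis). Points are ratios, bars 95% exact counting intervals from 1 library each, and the dashed line is the median of all protein-coding genes marked in both (1.23). 29 of the 33 points lie above 1, and 4 intervals exclude it.

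The position of the regions was read against the transcription start of the RefSeq promoter table, which had an entry for 44 of the 50 genes; PSMA7, PSMB1, PSMB6, PSMB7, PSMD4 and PSMG3 had none. A region lay within 1 kb of the start in 34 of 44 genes in the lactate-labelled library and 33 of 44 in the untreated-labelled library, against 49.4% and 43.5% of all protein-coding genes in the table. The median distance of the summit from the start was 109.5 bp and 107 bp, against 135 bp and 137 bp over all such genes. The summit lay upstream in 24 of 34 and 26 of 33 genes (70.6% and 78.8%), against 72.5% and 73.1%. Of the genes marked at an end that have an entry, 32 of 32 in each library had their strongest region nearer to the annotated end on the start side. At PSMA1 in the untreated-labelled library that annotated end is distant from the table start. The same share over all protein-coding genes was not computed, so this count does not set the proteasome genes apart.

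At 3 genes the start of the table lay over 1 kb from either annotated end, and there the choice of the window decided the count. PSMA1 is annotated over 139 kb because of a distant upper end, but its table start at position 14520386 of chromosome 11 carried 32 tags (21.9 to 45.2) in the lactate-labelled library and 37 tags (26.1 to 51.0) in the untreated-labelled library. The fold enrichments there were 8.46 and 10.1, with summits 25 and 29 bp upstream of the start, so the absence at its annotated ends in the lactate-labelled library did not extend to this start. PSMA6 carried a region at its table start in the lactate-labelled library alone (13 tags, 6.92 to 22.2, summit 8 bp downstream). PSMG4 carried one in the untreated-labelled library alone (14 tags, 7.65 to 23.5, summit 75 bp upstream). With a region at an end or at the table start counted, 40 genes were marked in the lactate-labelled library and 36 in the untreated-labelled library, and PSMA8, PSMB4, PSMB11, PSMC1, PSMC2, PSMC3IP, PSMD6 and PSMF1 were left in neither. The share of all protein-coding genes marked under this wider rule was not computed.

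The sequence before the PSMA1 table start is shown because both libraries have a region there (chr11:14520387-14520636, minus strand). At an annotated end of PSMA1 only the untreated-labelled library has one. It holds none of the motifs given in capitals elsewhere.
PSMA1: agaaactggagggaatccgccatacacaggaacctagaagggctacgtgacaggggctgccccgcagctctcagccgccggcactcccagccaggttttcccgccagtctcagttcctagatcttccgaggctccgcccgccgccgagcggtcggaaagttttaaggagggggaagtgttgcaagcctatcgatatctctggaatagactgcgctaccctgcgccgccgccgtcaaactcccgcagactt

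**Figure D3:**
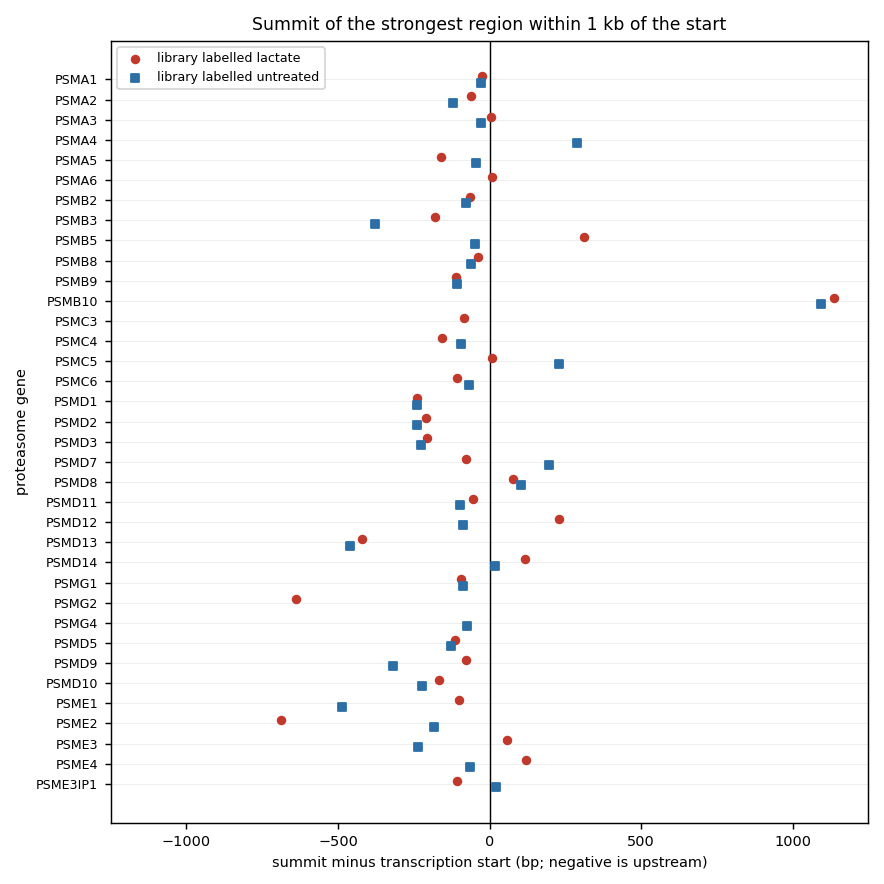
Distance from the transcription start of the RefSeq table to the summit of the strongest region within 1 kb (x axis, bp, negative upstream), for the 36 proteasome genes with such a region in at least 1 library (y axis). Points stand for the library labelled lactate or untreated. Most summits lie within 300 bp of the start, and PSMB10 stands apart at 1135 and 1094 bp downstream.

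Over all protein-coding genes, promoters with few CpG dinucleotides carried regions least often, and the proteasome genes were described on the same scale. In the 250 bases before the start, the median CpG number was 20 in the 31 proteasome genes with a region near the start in both libraries, 22 in the 5 with one in 1 library and 14 in the 8 with none. Over all protein-coding genes in the table the medians were 21, 21 and 8. In the lowest CpG quartile of all genes (0 to 6 CpG), 13.1% had a region near the start in the lactate-labelled library and 11.3% in the untreated-labelled library. The 5 proteasome genes there were PSMB10, PSMB11, PSMC2, PSMC5 and PSMF1, of which PSMB10 and PSMC5 had one in both. The PSMB10 regions lay downstream of its start, at 955 bp (lactate-labelled) and 966 bp (untreated-labelled), and so outside the 250 bases counted. In the third quartile (18 to 26 CpG), 69.5% and 62.5% of all genes had one, and so did 17 and 16 of 20 proteasome genes. The unmarked genes PSMD6 and PSMA8, with 19 and 18 CpG, lay in that quartile, so a low CpG number did not go with every unmarked gene.

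**Figure D4:**
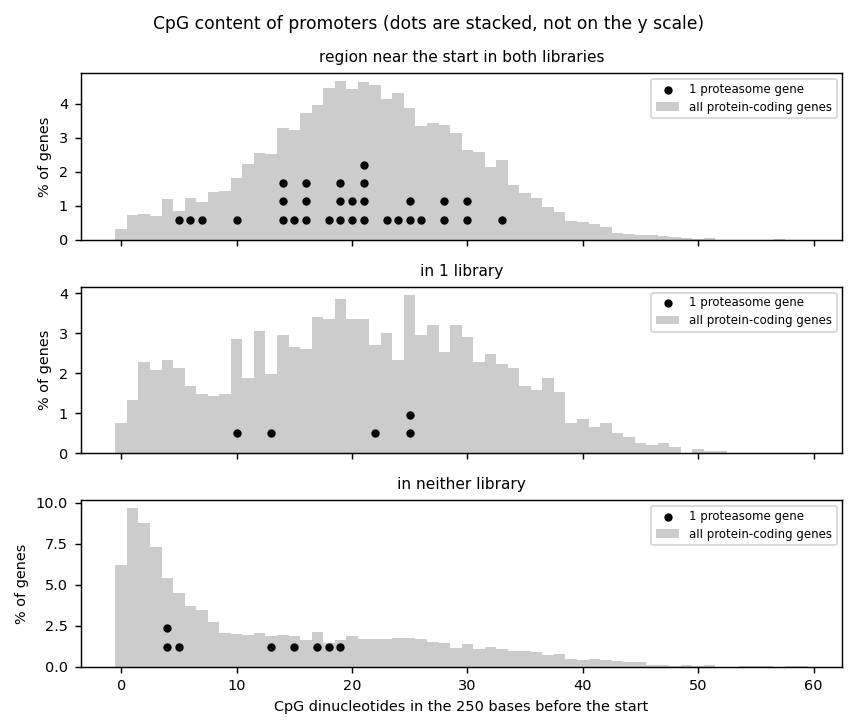
CpG dinucleotides in the 250 bases before the start (x axis) for all protein-coding genes of the table (grey bars, % of genes on the y axis) and for 44 proteasome genes (1 dot each, stacked), split by whether a region lay within 1 kb of the start in both libraries, in 1 library or in neither. The 8 proteasome genes with none have between 4 and 19 CpG.

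Motifs were searched on both strands of the same 250 bases. The antioxidant response element core TGACNNNGC, the kind of site bound by NFE2L1, the factor that raises proteasome gene transcription when degradation is blocked, was present in 11 of 44 proteasome promoters and in 11.5% of all 15842 promoters in the table. The 11 genes were PSMB3, PSMB9, PSMD3, PSMD5, PSMD9, PSMD12, PSME1, PSME2, PSME4, PSMG1 and PSMG2. All but PSMG2 had a region near the start in both libraries, which 31 of all 44 proteasome genes and 40.3% of all protein-coding genes in the table had. CCAAT was present in 20 of 44 and 34.5% of all, the GC box GGGCGG in 28 of 44 and 56.0%, and the ETS motif CCGGAAGT in 6 of 44 and 5.08%. The interferon-stimulated response element occurred in 5 of 44 (PSMA4, PSMB4, PSMB10, PSME2 and PSMG4) and 2.72% of all, and the gamma-activated site TTCNNNGAA in 5 of 44 and 6.12%. The nuclear respiratory factor 1 site occurred in 0 of 44 and 1.48% of all. No motif searched contains another, but matches may overlap, and a match only describes the letters.

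At 13 of the 40 genes marked in either library, the strongest region also lay at an annotated end of another protein-coding gene, so it cannot be assigned to 1 gene. The same share over all marked protein-coding genes was not computed. The count leaves out PSMD10, whose regions span the table start of ATG4A, 236 bp from its own. These pairs included PSMA2 with the mitochondrial ribosomal protein gene MRPL32, PSMB1 with TBP, the TATA-binding protein gene, PSMC5 with FTSJ3, PSMD13 with SIRT3, a mitochondrial deacylase gene, and PSME4 with ACYP2. At 7 proteasome genes a coding gene started within 1000 bp upstream on the other strand (PSMA2, PSMB9, PSMD9, PSMD10, PSMD13, PSME2 and PSME4), and all 7 had a region near the start in both libraries. Of all 1630 genes with such a neighbour, 82.3% had one in the lactate-labelled library and 73.3% in the untreated-labelled library.

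More than 1 kb from both annotated ends, 9 proteasome genes held 14 regions in the lactate-labelled library and 8 held 14 in the untreated-labelled library. PSMF1 held 2 and 3, PSMA1 held 1 and 3, and PSMB7 and PSME4 each held 2 in each library. These named genes are long, from 59.0 kb (PSMF1) to 139 kb (PSMA1). Shorter genes held such regions too. Among them were PSMD2 (9.81 kb) and PSMD9 (29.5 kb) in the lactate-labelled library and PSMD3 (17.2 kb) in the untreated-labelled library. The counts include the regions at the table starts of PSMA1, PSMA6 and PSMG4 given above. The counts were not set against gene length or against all protein-coding genes, so they do not set the proteasome genes apart.

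Of 29 further genes of the pathway, 23 were marked in each library and 20 in both, against 49.5% (lactate), 43.5% (untreated) and 39.8% (both) of all protein-coding genes. These comprised ubiquitin genes, activating enzymes, shuttle factors, particle-associated proteins and regulators of proteasome genes. POMP, the maturation factor of the core particle, had 11 tags in each library, and USP14, a deubiquitinase that binds the particle, had 39 and 25 tags. NFE2L1 had 35 and 22 tags. ECPAS, a proteasome adaptor gene, NPLOC4, a cofactor gene of the unfoldase VCP, and UBA1, a ubiquitin-activating enzyme gene, were marked in the lactate-labelled library alone, with 23, 12 and 14 tags.

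The mark reads chromatin and not expression, so markers can describe the cells only in part. Of 8 squamous epithelial genes, 5 were marked in the lactate-labelled library and 4 in the untreated-labelled library, with EPCAM, KRT5, KRT17 and SFN in both, KRT6A in the lactate-labelled library alone and TP63, CDH1 and KRT14 in neither. Of 7 genes of other cell types, 3 and 2 were marked, CD3E and SYP in both and COL1A1 in the lactate-labelled library alone. Beside the 49.5% and 43.5% of all protein-coding genes, counts over lists this short set neither list apart. Their part in the results was not tested.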

How the data were processed

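CUT&Tag libraries of CAL27 cells, 1 per condition, were compared as labelled. The submitters' processing notes name build hg38 and the tools MACS2 2.1.0, BWA and fastp 0.20.0. Per the file headers, MACS 2.1.0.20150420 called peaks in each library without a control, keeping q up to 0.05, and placed a 200 bp extension with its shift at -100 bp, so that each window is centred on the cut. The deposited pileup is a signal, the number of tags at the summit with no scaling for depth, and the deposited fold enrichment is a ratio of that pileup to the caller's local background, each raised by 1. Neither a library without antibody nor a spike-in was used here.

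Summits of the same start and end were collapsed to 1 region, kept at its highest fold. Genes, starts and promoter sequences came from RefSeq tables for GRCh38.p14, the same build. Pileups were divided by the library's tags. Intervals are exact Poisson, or exact binomial for a ratio. The −log10 p used in an alternative was recomputed from the Poisson upper tail, since the lists carry no p. The deposited lists hold summits of at least 6 tags, so no listed region means only that none passed the caller's threshold.

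The members and gene lists were chosen with earlier results of these data known. The named genes were those marked in 1 library or neither, all immunoproteasome, thymic, testis, catalytic and assembly genes, the 5 highest folds of each library, and the 3 highest and 3 lowest pileup ratios. Some genes of the pathway list are not reported by name here. The code was tested on simulated data. Alternatives covered the window, the peak threshold, list length, overlap, membership and scaling. The scripts ran under Python 3.11.15 with SciPy 1.17.1 for intervals, pandas 2.3.3 and numpy 2.4.6 for tables, and matplotlib 3.10.9 for figures.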

Additional observations from a re-analysis of the deposited data

How the results depend on the processing

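No paired analysis was possible because each group had 1 library. The 38, 35, 33, 5 and 2 genes marked in the lactate-labelled library, the untreated-labelled library, both, and each alone stayed within 1.5 times under windows of 500 bp and 2 kb, with the summit inside the window, without PSMC3IP and PSME3IP1, and with the table start added (an alternative chosen after seeing the data). With the table start added the members changed: PSMG4 took the place of PSMA1 in the untreated-labelled library alone, and PSMA6 joined the lactate-labelled library alone. At a fold enrichment of at least 5, 8 were marked in the lactate-labelled library alone, 21 in the untreated-labelled library and 18 in both, against 10.6%, 23.3% and 19.7% of all genes. At a −log10 p of at least 7, 10 were in the lactate-labelled library alone, against 10.9%. With the 21840 strongest regions of each library, 25 were marked in the lactate-labelled library, 20 in both and 4 in the untreated-labelled library alone, against 28.8%, 21.5% and 5.80%. These stricter lists hold fewer regions by construction. With the table start only, which leaves out 6 genes without an entry, 3 were in the lactate-labelled library alone. Over all genes in the table, 49.4% had a region near the start in the lactate-labelled library and 40.3% in both. With no region of the other library within 5 kb, 3 genes (PSMA7, PSMB6 and PSMD4) and 1 gene (PSMA4) were left alone in the lactate-labelled and the untreated-labelled library. The share of all genes left under this 5 kb rule was not computed, so these counts do not set the proteasome genes apart. Without genes that share a region with another coding gene, chosen after seeing the data, 37 genes were left. Of these, 23 were marked in the untreated-labelled library and 1 in it alone. Only marked genes were removed, so the counts fall by construction, and no share over all genes was computed under this restriction. The median pileup ratio of 1.33 was the same with the summit of highest pileup and with overlapping regions only, and 1.09 when scaled to shared gene-end regions. All 66 ratios of single genes under that scaling and with the summit of highest pileup lay within their counting intervals. This could hardly come out otherwise and is no check of the ratios. With the summit of highest pileup each ratio was unchanged, and the scaling divided every ratio by the same 1.22. Under the scaling 9 genes turned below 1 and 0 intervals excluded 1. Pileups of 6 to 55 tags at the proteasome genes limit what a single ratio can show.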

Other observations

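Sequences outside the protein-coding genes carry the same symbol prefixes. Of 53 pseudogenes named for proteasome genes, 3 were marked at an end in the lactate-labelled library and 5 in the untreated-labelled library, against 5.96% and 5.41% of all 17051 pseudogenes. PSMD10P2, on chromosome 3, had 26 tags in the lactate-labelled library and 22 tags in the untreated-labelled library, more than the 18 and 17 tags of its parent gene PSMD10. PSMA3P1 had 18 and 10 tags. The deposited input names carry the tag uni, but the sources used here do not say how reads shared between a gene and its copies were treated, so the tags at these pseudogenes are uncertain. Of 8 noncoding RNA genes with these prefixes, 3 were marked in the lactate-labelled library and 4 in the untreated-labelled library, against 22.5% and 19.8% of all 18303 genes of that kind (lncRNA). PSMB8-AS1 and PSMG3-AS1 lie at the same region as PSMB8 and PSMG3, and without strand in the assay the members of these pairs cannot be told apart.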
